A study of Mus musculus with 10 samples.

Results

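Mitochondrially encoded transcripts are the RNAs made from the mitochondrial genome itself. They were chosen by symbol, as every row of the expression lists whose symbol starts with mt- in lower case, and number 37 of the 38803 symbols in each list. They comprise 13 messenger RNAs, 2 ribosomal RNAs and 22 transfer RNAs. All 37 lie on the mitochondrial chromosome in the GENCODE M21 annotation of GRCm38.

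RNA was sequenced from the dorsal telencephalon, the embryonic tissue that forms the cerebral cortex, of mice at embryonic day 12 on a mixed C57/Bl6 and 129 SvJ background. The 5 control libraries came from embryos with 1 wild-type and 1 floxed allele of Rnu11, written Rnu11WT/Flx, and the 5 mutant libraries from embryos with both alleles floxed, written Rnu11Flx/Flx. All 10 carried Emx1-Cre on 1 allele, a recombinase active in progenitors of the dorsal telencephalon, so the floxed allele of the controls could recombine too and cells outside the Emx1 lineage keep theirs. Rnu11 encodes the U11 small nuclear RNA of the minor spliceosome, and the series compares cortex with both alleles floxed against cortex with 1 floxed.

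Mitochondrial DNA is a small circle that is transcribed from both strands into long precursors. The transfer RNAs punctuate these precursors and are cut out of them, which frees the messenger and ribosomal RNAs between them. The messenger RNAs encode core subunits of the respiratory chain and of ATP synthase, and all other subunits come from the nucleus. Mitochondrial genes have no introns, so they are not themselves substrates of the spliceosome.

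Values are FPKM, which count fragments relative to transcript length and library size, and so are levels per length. Differences were tested as log2(FPKM + 1) with limma over all 13522 genes that reached 1 FPKM in 5 or more libraries, with Benjamini-Hochberg adjustment over all of them and a threshold of 0.05. All 13 messenger RNAs and both ribosomal RNAs were tested. Whether the libraries stem from different embryos is not labelled, and the p-values then measure only the spread between these libraries, which may be technical. In bulk tissue a change in the share of a cell type and a change in RNA per cell cannot be told apart.

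Rnu11 itself ranged from 1913 to 2817 FPKM in controls and from 473 to 1421 FPKM in mutants, without overlap. The libraries fell into sets that crossed genotype, split here by Rnu12, the U12 small nuclear RNA, at 100 FPKM. The second set held control 5, mutant 4 and mutant 5, with Rnu12 at 487 to 688 FPKM, and the first set held the 7 others, with 5.91 to 33.8 FPKM. Rnu11 lay at 473 to 712 FPKM in first-set mutants, 0.247 times the mean of their controls, and at 1344 to 1421 FPKM in second-set mutants, 0.610 times the 1 control of that set. Markers fixed for the dorsal telencephalon were all expressed above the filter (10 of 10), with summed levels of 163 to 265 FPKM in controls and 204 to 250 FPKM in mutants. Erythroid markers summed to 3910 to 9710 FPKM in controls and 5402 to 10170 FPKM in mutants, and ventral telencephalon markers to 1.97 to 45.4 FPKM and 1.29 to 15.1 FPKM, with control 4 highest. Of the dorsal, erythroid and ventral markers 10, 9 and 1 could be tested. Between genotypes 0 passed, where 0.155% of all genes tested did, so this count says little about composition. Of the dorsal markers 6 of 10 stood higher in every second-set library than in any first-set library and 1 stood lower, where 15.5% and 6.28% of all genes tested did, and the dorsal sums were 245 to 265 FPKM against 163 to 233 FPKM. Markers of mesenchyme and pericytes summed to 75.6 to 96.8 FPKM in the second set and 61.7 to 182 FPKM in the first, with 2 of 8 lower in every second-set library. Those of microglia and macrophages summed to 10.8 to 17.1 FPKM in controls and 12.5 to 31.8 FPKM in mutants, highest in mutant 1, with a median log2 difference of 0.47 between genotypes and -0.39 between sets. Endothelial markers summed to 37.3 to 61.0 FPKM in controls and 41.4 to 75.6 FPKM in mutants, and markers of choroid plexus and hem to 223 to 410 FPKM and 171 to 396 FPKM. The part of cell composition in the mitochondrial values was not tested.

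The transfer RNAs were listed at exactly 0 FPKM in all 10 libraries, 22 of 22. They are the adaptors that read the mitochondrial codons, and the mitochondrially encoded subunits cannot be made without them. They are the shortest members, from 59 bases for mt-Ts2, a transfer RNA for serine, to 75 bases for mt-Tl1, a transfer RNA for leucine, of which 14 are annotated on the plus strand and 8 on the minus strand. Both ends of this range are shown, on GRCm38 and on the plus strand, mt-Ts2 at chrM:11613-11671 and mt-Tl1 at chrM:2676-2750, to show how little sequence a fragment would have to cover.
mt-Ts2: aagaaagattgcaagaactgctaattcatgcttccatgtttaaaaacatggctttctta
mt-Tl1: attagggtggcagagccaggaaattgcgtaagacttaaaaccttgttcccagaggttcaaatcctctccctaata

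Other genes of this length were mostly at 0 as well. Of 84 symbols with 40 to 59 annotated exonic bases, 0 had a value above 0 in any library. Of 745 symbols with 60 to 79 bases, among them the other 21 transfer RNAs, 17 did. Of 554 symbols with 140 to 199 bases, 197 did. A value of 0 for a transfer RNA therefore gives no level and no limit, and no comparison between genotypes was made for this class. The sets differed here too, since 0.805 to 1.48% of the symbols with 60 to 79 bases were above 0 in second-set libraries against 0.134 to 0.403% in first-set libraries.

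The ribosomal RNAs were the most abundant members. mt-Rnr1 (chrM:70-1024), the RNA of the small mitochondrial ribosomal subunit, lay at 14995, 15983, 15772, 14905 and 12882 FPKM in controls 1 to 5 and at 17310, 13857, 15269, 14057 and 19422 FPKM in mutants 1 to 5. The groups overlapped, with control 5 lowest and mutant 5 highest. mt-Rnr2 (chrM:1094-2675), the RNA of the large subunit, lay at 98645, 90077, 106439, 75558 and 109658 FPKM in controls and at 97650, 88927, 103231, 108740 and 126945 FPKM in mutants. Here control 4 was lowest and mutant 5 highest, again with overlap.

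Neither ribosomal RNA passed the test between genotypes. The log2 difference, mutant minus control, was 0.09 (SE 0.18) for mt-Rnr1 and 0.13 (SE 0.23) for mt-Rnr2 (limma, adjusted p = 0.896 and 0.878), beside a median of 0.11 over all genes tested. The 95% interval ran from -0.30 to 0.49 for mt-Rnr1 and from -0.36 to 0.63 for mt-Rnr2. Libraries were depleted of ribosomal RNA with Ribo-Zero before sequencing, so these are the levels that remained after depletion. Together the pair made up 3.84 to 5.11% of all FPKM in the first set and 5.31 to 6.14% in the second. mt-Rnr2 exceeded mt-Rnr1 5.07-fold in control 4 to 8.51-fold in control 5.

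**Figure D1:**
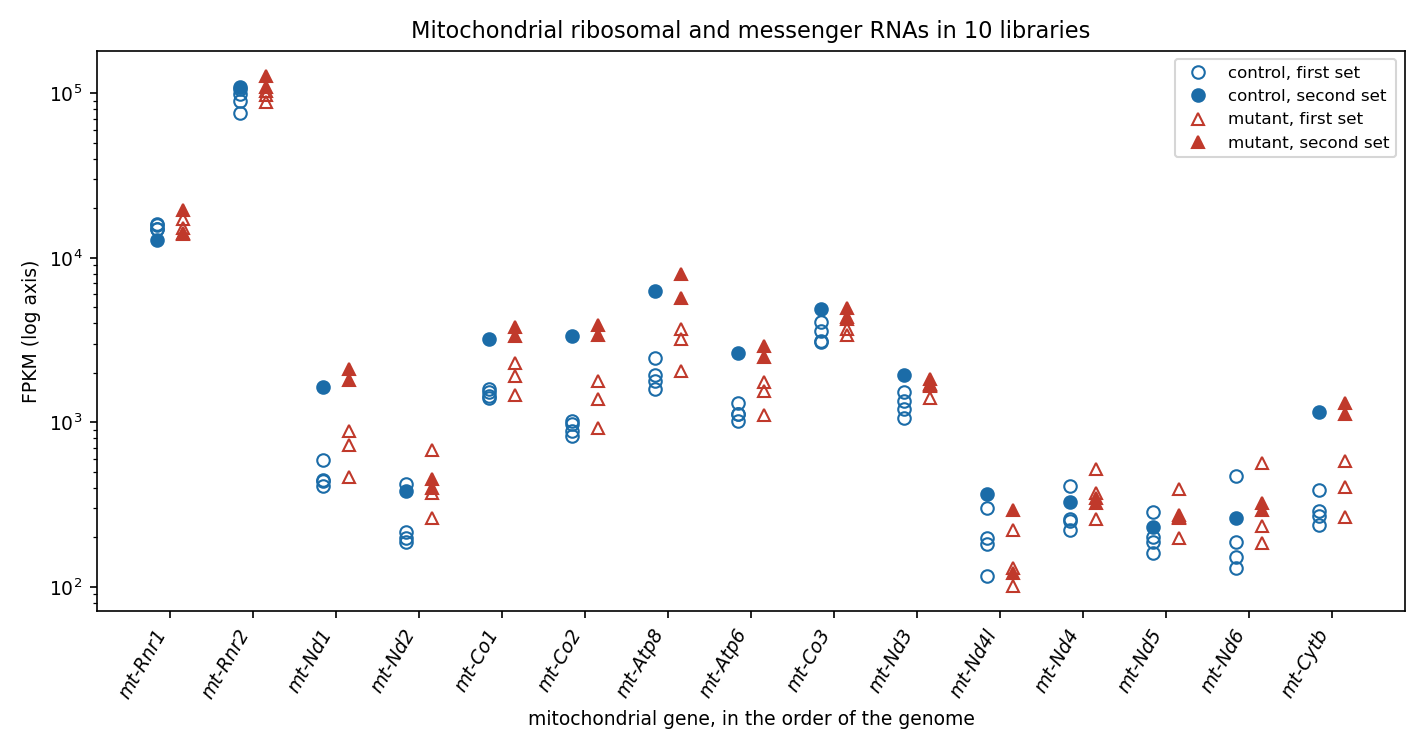
FPKM (log axis) of the 15 mitochondrial genes with values above 0, in genome order; each point is 1 library, circles are controls, triangles mutants, and filled symbols the 3 libraries of the second set. Filled symbols stand above all open ones for mt-Nd1, mt-Co1, mt-Co2, mt-Atp8, mt-Atp6, mt-Co3, mt-Cytb and mt-Rnr2, while circles and triangles overlap for every gene.

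In both library sets mt-Co3 and mt-Atp8 had the highest mean levels per length among the messenger RNAs and mt-Nd5 and mt-Nd4l the lowest. Means over the 10 libraries ran from 3944 ± 674 FPKM (SD, n = 10) for mt-Co3, a subunit of cytochrome c oxidase, to 203 ± 91.3 FPKM for mt-Nd4l, a subunit of NADH dehydrogenase. Between them stood mt-Atp8 (3669), mt-Co1 (2196), mt-Co2 (1843), mt-Atp6 (1703), mt-Nd3 (1539), mt-Nd1 (952), mt-Cytb (602), mt-Nd2 (356), mt-Nd4 (329), mt-Nd6 (280) and mt-Nd5 (245), each a mean in FPKM. Neighbours kept this order in all 10 libraries for mt-Atp8 over mt-Co1 and for mt-Nd1 over mt-Cytb. For mt-Co2 over mt-Atp6, mt-Nd6 over mt-Nd5 and mt-Nd5 over mt-Nd4l it held in 5 of 10, and for the other neighbours in 4 to 8 of 10. The order of the means differed between sets. In the first mt-Nd3 (1419 FPKM) stood above mt-Atp6 (1282) and mt-Co2 (1109), and in the second mt-Atp8 (6650) stood above mt-Co3 (4734), and mt-Co2 (3556) and mt-Nd1 (1851) above mt-Nd3 (1818).

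Summed over all 13, the messenger RNAs lay at 12335, 13490, 11854, 11175 and 26710 FPKM in controls 1 to 5 and at 15891, 12182, 19260, 25490 and 30251 FPKM in mutants 1 to 5. Control 5 stood with mutants 4 and 5 above the 7 other libraries. The sum averaged 15113 ± 6538 FPKM in controls and 20615 ± 7278 FPKM in mutants (SD, n = 5 each), a ratio of 1.36. The difference of these means is smaller than either SD, and both SDs include the spread between library sets. Within the first set the sum averaged 12214 ± 975 FPKM in 4 controls and 15778 ± 3540 FPKM in 3 mutants, a ratio of 1.29. In the second set the ratio to the 1 control was 1.04. As a share of the FPKM of protein-coding genes the lowest first-set library had 3.30% and the highest 5.78%, and mutant 5 reached 8.30%.

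No messenger RNA passed the threshold between genotypes, 0 of 13 (limma), where 0.155% of all genes tested passed, 0.0887% higher and 0.0666% lower (12 and 9 genes). Rescaling turned that split to 11 higher and 19 lower (median ratio), 13 and 22 (quantile) or 12 and 16 (nuclear protein-coding sum). 1 of the 13, mt-Nd2, had an unadjusted p under 0.05, as did 1185 of all 13522 genes, and limma without trend or robust moderation also called 0. The groups did not separate for any of the 13, where 1.90% of all genes tested did, 1.52% higher and 0.377% lower in mutants. The log2 differences ran from -0.43 for mt-Nd4l to 0.78 for mt-Nd1, with adjusted p from 0.568 to 0.83. Their median was 0.46, against 0.11 over all genes tested, and 12 of 13 lay above 0, as did 75.7% of all genes tested. Without control 5 the median was 0.69, against 0.14 over all genes, and the smallest adjusted p of any member was then 0.137.

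By complex, the 7 messenger RNAs of complex I, the NADH dehydrogenase that feeds electrons into the chain, summed to 3380 ± 1113 FPKM in controls and 4430 ± 1025 FPKM in mutants (SD, n = 5). Complex III, the cytochrome bc1 complex, has 1 mitochondrial subunit, mt-Cytb, at 467 ± 385 and 737 ± 456 FPKM. Complex IV, the cytochrome c oxidase that reduces oxygen, has 3 mitochondrial subunits, with 7002 ± 2513 and 8966 ± 2854 FPKM. Complex V, the ATP synthase, has 2, with 4264 ± 2666 and 6482 ± 3051 FPKM. Each of these sums overlapped between genotypes, and each stood higher in every second-set library than in any first-set library.

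**Figure D2:**
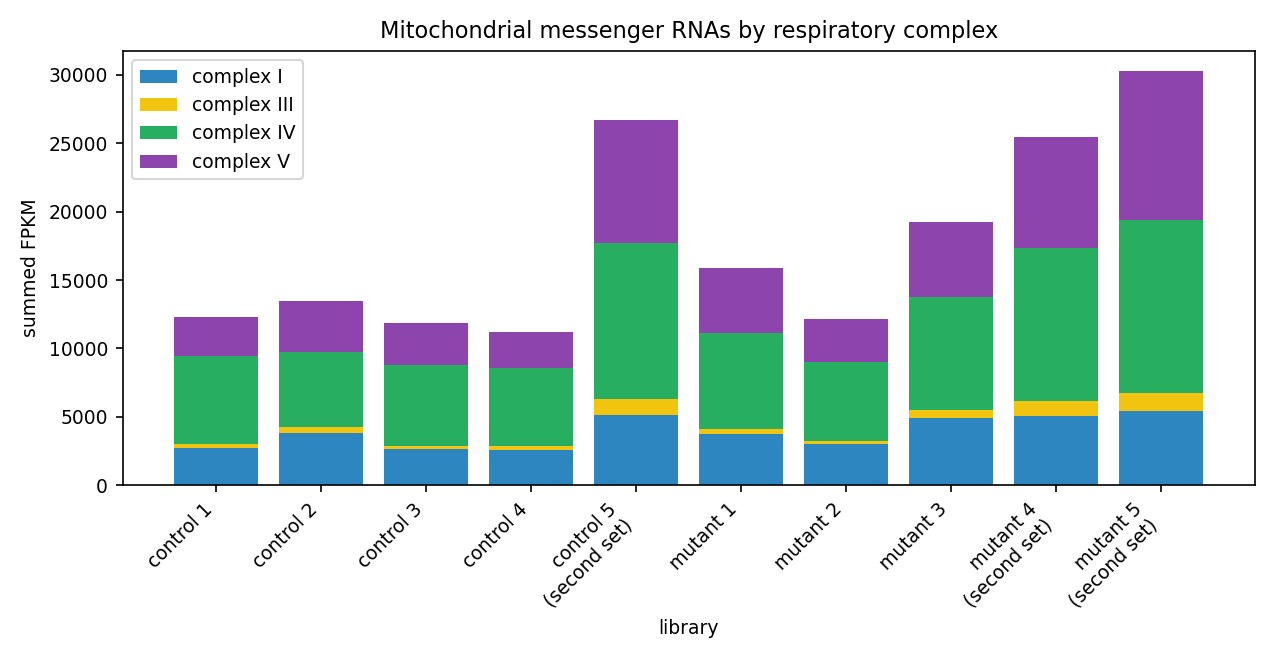
Summed FPKM of the mitochondrial messenger RNAs in each library, stacked by respiratory complex. Control 5, mutant 4 and mutant 5, the second set, reach 26710, 25490 and 30251 FPKM, and the other libraries stay between 11175 and 19260 FPKM.

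The composition of the mitochondrial messenger RNAs differed between the library sets. Of the 13, 7 stood higher in each second-set library than in any first-set library, where 15.5% of all genes tested did, and 0 stood lower, where 6.28% did. The 7 were mt-Nd1, mt-Cytb, mt-Co1, mt-Co2, mt-Co3, mt-Atp6 and mt-Atp8, all members of complexes III, IV and V and 1 of complex I. The 6 that overlapped between sets were the other subunits of complex I. The sets were found in the data and hold both genotypes, so they are described without a test. Small nuclear-encoded RNAs moved with the sets as well, since Rn7sk lay at 354371 to 593523 FPKM in the first and 219192 to 296543 FPKM in the second, and Rny1 at 40158 to 93172 and 137459 to 257420 FPKM. Their part in the result was not tested.

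mt-Cytb (chrM:14145-15288), the cytochrome b of complex III, showed the widest gap. It lay at 239, 388, 271, 291 and 1148 FPKM in controls 1 to 5 and at 406, 267, 581, 1129 and 1304 FPKM in mutants 1 to 5. On average the second set was 3.42 times the first. mt-Nd1 (chrM:2751-3707), a membrane subunit of complex I, lay at 409, 592, 437, 443 and 1628 FPKM in controls and at 732, 467, 887, 1813 and 2113 FPKM in mutants, 3.27 times higher in the second set. mt-Co2 (chrM:7013-7696), the subunit of cytochrome c oxidase that accepts electrons from cytochrome c, lay at 821, 974, 882, 1015 and 3353 FPKM in controls and at 1380, 920, 1770, 3415 and 3901 FPKM in mutants, 3.21 times higher in the second set. In each of these 3 genes control 5 exceeded mutants 1 to 3.

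The other members without overlap had smaller gaps. The second set stood at 2.78 times the first for mt-Atp8 (chrM:7766-7969), 2.09 times for mt-Atp6 (chrM:7927-8607), both membrane subunits of ATP synthase, and 2.07 times for mt-Co1 (chrM:5328-6872), the catalytic subunit of cytochrome c oxidase. For mt-Co3 (chrM:8607-9390) it was 1.31 times, with 3088 to 4256 FPKM in the first set and 4392 to 4939 FPKM in the second. mt-Rnr2 behaved like mt-Co3, at 1.22 times, and mt-Rnr1 was at 1.00 times, with overlap.

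Between genotypes these 7 messenger RNAs differed by 0.15 to 0.78 on the log2 scale. Whether this difference varied between sets was not tested, and the values within each are given side by side. For mt-Nd1 the log2 difference was 0.53 (SE 0.22) within the first set, with 4 controls and 3 mutants (limma, adjusted p = 0.243), and 0.26 in the second, where the 1 control gives no spread. Once library set entered the model, it was 0.45 (SE 0.17, adjusted p = 0.302). For mt-Cytb the same values were 0.44 (SE 0.26, adjusted p = 0.378), 0.08 and 0.34 (adjusted p = 0.501), and for mt-Atp8 0.60 (SE 0.23, adjusted p = 0.218), 0.09 and 0.45 (adjusted p = 0.376). With the set as a term 0 of 15 members passed, where 0.547% of all genes did (0.325% higher, 0.222% lower), and 3 had an unadjusted p under 0.05, namely mt-Nd1, mt-Co2 and mt-Atp8, as did 12.6% of all genes in that model. In the first set alone 0 of 15 passed, where 0.747% of all genes did (0.606% higher, 0.141% lower), and 3 had an unadjusted p under 0.05, as did 18.9% of all genes there.

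**Figure D3:**
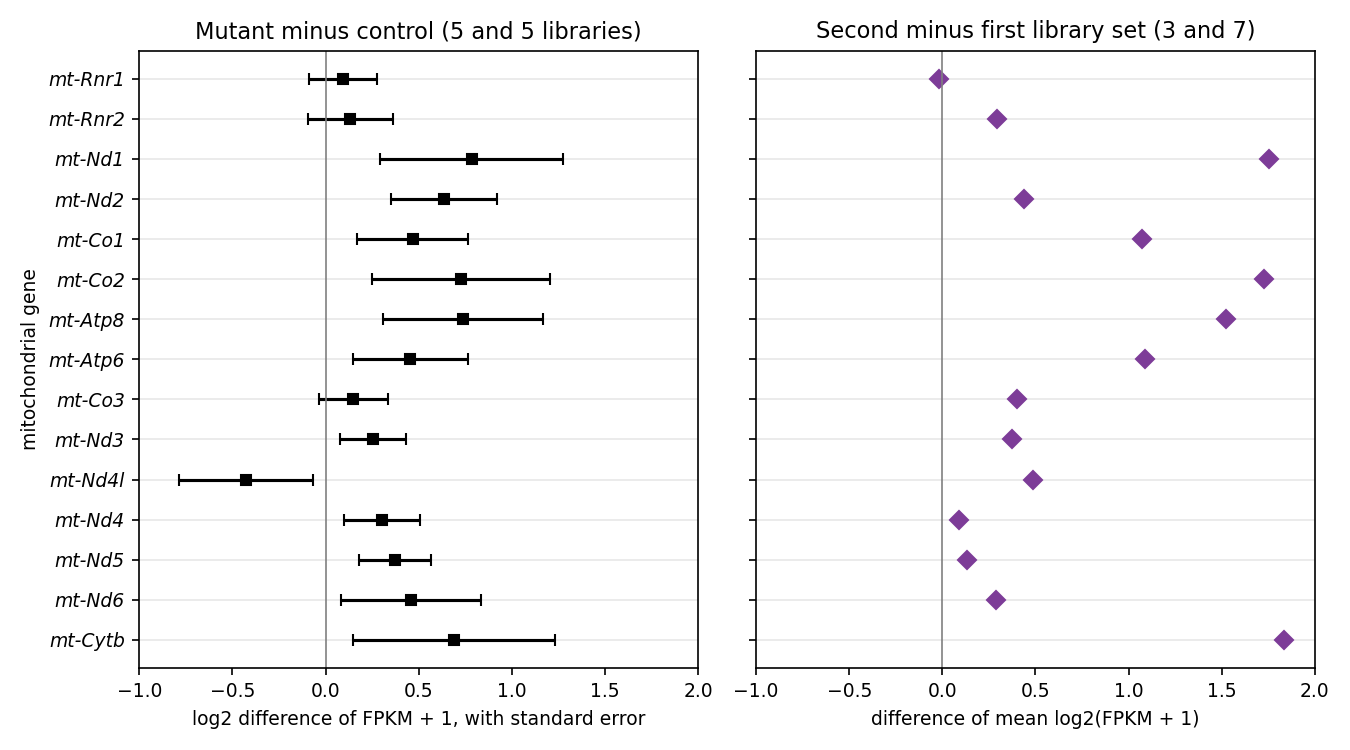
Left, log2 difference between 5 mutant and 5 control libraries with its standard error (limma) for each mitochondrial gene; right, difference of mean log2(FPKM + 1) between the 3 libraries of the second set and the 7 of the first. Genotype differences lie between -0.43 and 0.78, and set differences reach 1.83 for mt-Cytb while mt-Nd4 and mt-Rnr1 lie at 0.09 and -0.02.

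Some of the remaining complex I messenger RNAs followed another order of libraries. Mutant 3 was highest for mt-Nd2, mt-Nd4, mt-Nd5 and mt-Nd6, and control 5 for mt-Nd3 and mt-Nd4l. mt-Nd2 (chrM:3914-4951), a membrane subunit, lay at 188, 419, 198, 216 and 381 FPKM in controls 1 to 5 and at 374, 261, 677, 396 and 450 FPKM in mutants 1 to 5. Mutant 3 was highest, and control 2 was above every other control. Its log2 difference between genotypes was 0.64 (SE 0.29), with an unadjusted p of 0.0474 (limma, adjusted p = 0.568), higher in 2 of the 5 mutants than in any control. Modelled together with library set it was 0.58 (adjusted p = 0.48).

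mt-Nd6 (chrM:13552-14070) is the only messenger RNA annotated on the minus strand, and so comes from the opposite precursor to the other 12. How strand was used to compute FPKM is not given, so its values may include fragments of the other strand. It lay at 130, 474, 153, 187 and 263 FPKM in controls and at 233, 186, 565, 293 and 321 FPKM in mutants. Control 2 and mutant 3 were the highest libraries, ahead of the whole second set. The same pair led for mt-Nd4 (chrM:10167-11544), at 410 and 517 FPKM with 222 to 371 FPKM elsewhere, and for mt-Nd5 (chrM:11742-13565), at 287 and 395 FPKM with 160 to 271 FPKM elsewhere. Both are proton-pumping subunits of complex I. The log2 differences between genotypes were 0.46 (SE 0.38) for mt-Nd6, 0.31 (SE 0.20) for mt-Nd4 and 0.37 (SE 0.19) for mt-Nd5 (limma, adjusted p = 0.736, 0.681 and 0.597).

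mt-Nd3 (chrM:9459-9806), a small complex I subunit, varied least among the complex I messenger RNAs, from 1067 FPKM in control 4 to 1938 FPKM in control 5, a 1.82-fold range. Its groups averaged 1416 ± 338 FPKM in controls and 1661 ± 158 FPKM in mutants (SD, n = 5, log2 difference 0.26, limma adjusted p = 0.686). By contrast mt-Cytb spanned a 5.46-fold range over the same libraries. For mt-Nd3 the second set stood at 1.28 times the first, near the 1.31 times of mt-Co3. The sets overlapped for mt-Nd3 because mutant 3 (1720 FPKM) exceeded mutant 4 (1682 FPKM).

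Ratios within a library remove the scaling to library size. mt-Cytb and mt-Nd5 are annotated on the same strand with mt-Nd6 and a transfer RNA on the opposite strand between them. Their ratio was 1.35 to 1.53 in all 7 first-set libraries, of either genotype, although mt-Nd5 itself varied from 160 to 395 FPKM there. In the second set it was 4.96 in control 5, 4.33 in mutant 4 and 4.80 in mutant 5. The ratio of mt-Nd1 to mt-Nd2 was likewise 1.31 to 2.20 in the first set and 4.27 to 4.69 in the second, and that of mt-Co2 to mt-Co1 0.534 to 0.771 and 1.02 to 1.04. Neither genotype stood apart in any of these 3 ratios.

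The ratio of mt-Nd6 to mt-Nd5 set control 2 and mutant 3 apart, at 1.65 and 1.43, from the 8 others, at 0.812 to 1.18. These libraries belong to different genotypes and both to the first set.

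**Figure D4:**
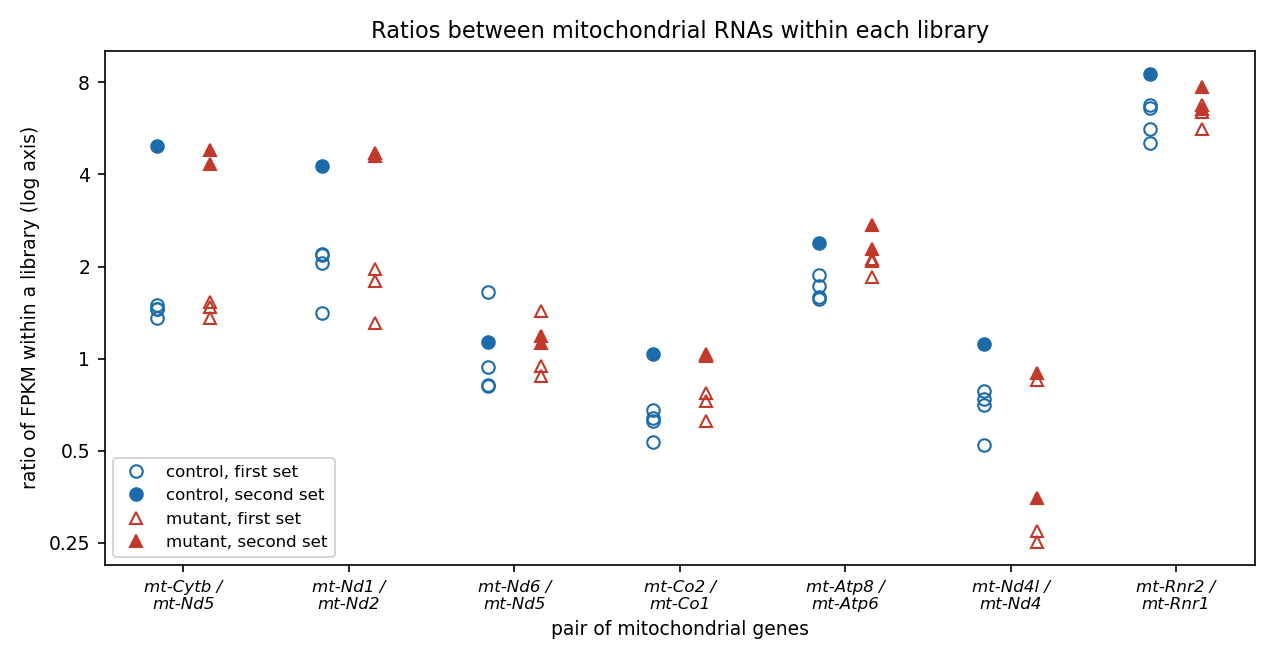
Ratio of FPKM (log axis) for 7 pairs of mitochondrial genes, 1 point per library, circles for controls, triangles for mutants, filled for the second set. For mt-Cytb to mt-Nd5 the open symbols lie between 1.35 and 1.53 and the filled ones between 4.33 and 4.96, and for mt-Nd4l to mt-Nd4 mutants 1, 3 and 5 lie lowest.

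mt-Atp8 and mt-Atp6 are read from 1 shared messenger RNA and overlap by 43 bases, from position 7927 to 7969. Fragments from the shared bases fit both genes. The end of mt-Atp8 (chrM:7907-7969) and the start of mt-Atp6 (chrM:7927-7989) are shown 5′ to 3′ on the plus strand of GRCm38, with the shared bases in capitals.
mt-Atp8: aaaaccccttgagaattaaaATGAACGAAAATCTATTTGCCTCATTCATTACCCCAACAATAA
mt-Atp6: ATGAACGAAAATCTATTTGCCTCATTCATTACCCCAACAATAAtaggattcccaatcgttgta
The level of mt-Atp8 per length was 1.57 to 2.12 times that of mt-Atp6 in the first set and 2.28 to 2.73 times in the second. It averaged 1.83 ± 0.334 in controls and 2.21 ± 0.327 in mutants (SD, n = 5), with overlap. mt-Nd4l and mt-Nd4 form the other such pair and overlap by 7 bases.

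mt-Nd4l (chrM:9877-10173), a small membrane subunit of complex I, was the single messenger RNA with a lower mean in mutants. It lay at 116, 302, 198, 183 and 367 FPKM in controls 1 to 5 and at 102, 221, 130, 292 and 122 FPKM in mutants 1 to 5. Mutant 1 was below every control, the 4 other mutants were within the range of controls, and the log2 difference was -0.43 (SE 0.36, limma adjusted p = 0.745). Relative to its partner mt-Nd4 it stood at 0.252 to 0.350 in mutants 1, 3 and 5 and at 0.520 to 1.12 in the 7 other libraries.

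This value cannot be read alone, because mt-Nd4l has a nuclear copy of identical sequence. Gm10222 is an unprocessed pseudogene on chromosome 1, on the minus strand, that matches mt-Nd4l over 294 of its 297 bases with 0 mismatches. The first 120 bases of each are shown 5′ to 3′, mt-Nd4l at chrM:9877-9996 and Gm10222 at chr1:24612581-24612700 of GRCm38, and no base is in capitals because none differs.
mt-Nd4l: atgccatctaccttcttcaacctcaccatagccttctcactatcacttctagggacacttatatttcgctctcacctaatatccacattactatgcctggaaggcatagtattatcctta
Gm10222: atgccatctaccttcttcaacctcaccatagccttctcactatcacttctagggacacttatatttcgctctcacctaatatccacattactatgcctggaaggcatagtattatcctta

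Gm10222 had 321, 508, 335, 335 and 22.7 FPKM in controls 1 to 5 and 859, 173, 890, 179 and 632 FPKM in mutants 1 to 5. It was highest in mutants 1, 3 and 5, where mt-Nd4l was 102 to 130 FPKM, and lowest in control 5, where mt-Nd4l was highest. Other libraries did not follow this, since control 2 was high in both and control 1 had little mt-Nd4l with an intermediate level of Gm10222. mt-Nd4l made up 94.2% of the sum of both in control 5, 62.1% in mutant 4 and 56.1% in mutant 2, and 10.6 to 37.3% in the other libraries. The sum of both was 437, 809, 532, 518 and 389 FPKM in controls and 960, 394, 1020, 471 and 754 FPKM in mutants.

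With the copy added to it, the log2 difference of mt-Nd4l changed sign, from -0.43 to 0.37 (limma, adjusted p = 0.721). Weighted by length, as in that fit, the joint level was 534 ± 162 FPKM for controls against 714 ± 278 FPKM for mutants (SD, n = 5), with overlap. Neither direction passed the test. Whether fragments given to Gm10222 came from the mitochondrial transcript was not tested.

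Nuclear copies of mitochondrial DNA were found among annotated transcripts for 11 of the 13 messenger RNAs. Nuclear sequence outside the annotated transcripts was not searched. A BLAST search of the GENCODE M21 transcripts gave 17 pseudogenes that matched a member over at least 100 bases at 90% identity or more. A copy without mismatches was found for 5 members, namely mt-Atp6, mt-Co2, mt-Co3, mt-Nd4 and mt-Nd4l. That of mt-Nd4 covered only 876 of its 1378 bases. The expression lists held a row under the annotated symbol for 9 of the 17 copies, and these values were used. 5 of these 9 reached at most 1.27 FPKM in any library. The copies of mt-Atp6, mt-Co2, mt-Co3 and mt-Nd4 that match without mismatches, such as Gm28661 for mt-Co2, had no row under these symbols. Their levels could not be analysed here.

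Copies on chromosome 2 set mutant 4 apart. Gm13341 (chr2:22587291-22587962, minus strand), a copy of mt-Co2 at 95.9% identity, lay at 337 FPKM in mutant 4 and at 0.217 to 6.01 FPKM in the 9 other libraries. Gm13340 (chr2:22588103-22589647), a copy of mt-Co1 at 97.6% identity, lay at 305 FPKM in mutant 4 and at 3.82 to 15.7 FPKM elsewhere. Gm13339 (chr2:22590024-22590533), a copy of part of mt-Nd2 at 96.7% identity, lay at 70.7 FPKM in mutant 4 and at 1.83 to 5.73 FPKM elsewhere. In mutant 4 these levels were 9.86, 9.15 and 17.9% of those of their mitochondrial counterparts. Over 684 aligned bases Gm13341 had 16 mismatches to mt-Co2 and 12 gap bases. The first 120 bases of mt-Co2 (chrM:7013-7132), of its identical copy Gm28661 on chromosome 1 (chr1:24615446-24615565, minus strand) and of Gm13341 (chr2:22587843-22587962, minus strand) are shown 5′ to 3′. Bases that differ from mt-Co2 are in capitals, to show how few positions differ within this window.
mt-Co2: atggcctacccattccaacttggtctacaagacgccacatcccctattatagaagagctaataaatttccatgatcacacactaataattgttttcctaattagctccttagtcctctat
Gm28661: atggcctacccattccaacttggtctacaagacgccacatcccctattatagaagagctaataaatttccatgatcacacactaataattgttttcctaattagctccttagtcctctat
Gm13341: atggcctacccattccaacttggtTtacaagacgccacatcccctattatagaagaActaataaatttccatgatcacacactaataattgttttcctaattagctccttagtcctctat
Adding the copies moved mt-Co2 in mutant 4 from 3415 to 3746 FPKM and its log2 difference between genotypes from 0.73 to 0.75 (limma, adjusted p = 0.678).

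**Figure D5:**
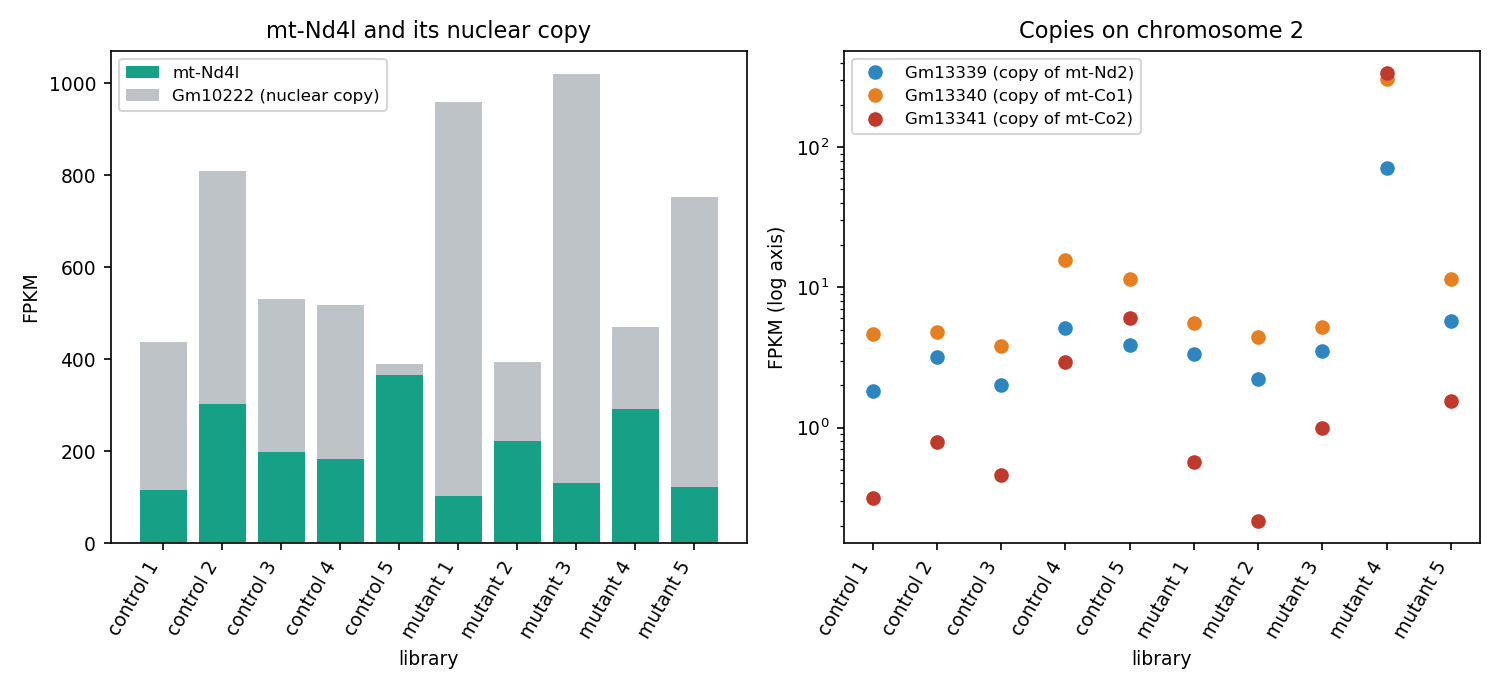
Left, FPKM of mt-Nd4l with its nuclear copy Gm10222 stacked on it, per library; right, FPKM (log axis) of the chromosome 2 copies of mt-Nd2, mt-Co1 and mt-Co2. mt-Nd4l takes from 10.6% of the stack in mutant 1 to 94.2% in control 5, and the chromosome 2 copies reach 70.7, 305 and 337 FPKM in mutant 4.

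Nuclear genes that act with the mitochondrial transcripts showed no call in any list, where 0.155% of all genes tested passed. At so low a share a count of 0 says little about lists this short. Of 9 tested genes for mitochondrial transcription 0 passed (limma), with a median log2 difference of -0.04 against 0.11 over all genes. Those with the smallest p were Tefm, the transcription elongation factor, at 14.3 ± 1.19 FPKM (controls) and 12.6 ± 0.878 FPKM (mutants) (SD, n = 5, adjusted p = 0.624), and Tfb2m, an initiation factor, at 9.72 ± 2.93 and 7.97 ± 4.20 FPKM. Of 36 genes for processing and decay of mitochondrial RNA 0 passed (median 0.05), led by the poly(A) polymerase Mtpap at 5.04 ± 1.60 and 6.45 ± 0.773 FPKM. Of 14 genes for maintenance of mitochondrial DNA 0 passed (median 0.07), led by Rrm2b, a ribonucleotide reductase subunit and p53 target, at 3.99 ± 0.580 and 5.26 ± 0.983 FPKM (adjusted p = 0.537). Of 8 regulators of mitochondrial biogenesis 0 passed (median 0.15), led by the coactivator Ppargc1a at 1.54 ± 0.366 and 2.20 ± 0.136 FPKM (adjusted p = 0.457).

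The nuclear partners of the same complexes did not separate the library sets in their summed levels, unlike the mitochondrial subunits, although single genes did. Their summed FPKM in the second set lay within the first-set range, at 2511 to 2533 against 2347 to 2606 for 36 complex I genes, 1121 to 1197 against 1092 to 1231 for 9 complex III genes, 2070 to 2134 against 1862 to 2192 for 11 complex IV genes and 2768 to 2840 against 2569 to 2854 for 16 complex V genes. Higher in every second-set library than in any of the first set were 7 of 36, 3 of 9, 1 of 11 and 2 of 16 genes. Of all genes tested 15.5% were. Lower were 4 of 36, 2 of 9, 2 of 11 and 0 of 16, beside 6.28% of all genes tested. The median differences between sets were 0.06, 0.02, 0.05 and 0.17 on the log2 scale, against 0.49 for the 13 mitochondrial messenger RNAs and 0.08 for all genes. The difference between these lists was not tested.

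Between genotypes 0 of these nuclear subunits passed (limma), where 0.155% of all genes tested did. A count of 0 therefore says little about these lists. Median log2 differences were 0.01, 0.08, 0.11 and 0.01 for complexes I, III, IV and V. The members with the smallest p included Ndufv3 of complex I, at 35.0 ± 3.81 FPKM (controls) and 49.1 ± 8.43 FPKM (mutants) (SD, n = 5, adjusted p = 0.333), Cyc1 of complex III, at 27.7 ± 2.26 and 32.3 ± 2.37 FPKM, Cox8a of complex IV, at 210 ± 41.4 and 258 ± 11.7 FPKM, and Atp5g1 of complex V, at 21.7 ± 5.71 and 27.8 ± 5.68 FPKM. Next by p, Atp5e of complex V was lower in mutants, at 442 ± 52.0 and 377 ± 69.3 FPKM (limma, adjusted p = 0.654). Ndufa3, Uqcrb and Cox5b, next by p in complexes I, III and IV, were higher. Log2 differences above 0 were found for 20 of 36, 6 of 9, 8 of 11 and 10 of 16 genes, beside 75.7% of all genes tested. Of 17 markers of mitochondrial mass 0 passed (median 0.03), beside the same 0.155% of all genes tested. Among them the citrate synthase gene Cs lay at 37.1 ± 5.63 and 44.0 ± 3.34 FPKM.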

How the data were processed

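Stranded libraries of total RNA were made after Ribo-Zero depletion, per the labels' protocols. HISAT2 and the build GRCm38 (mm10) are named in the submitters' processing notes. The authors deposited FPKM values, 1 list per library. Not given in the sources used here were the program that computed them, its annotation, and its use of strand and of fragments that map to several places. Library sums ran from 1996700 to 3051430 FPKM. Depth in fragments is unknown, so no counting intervals were computed.

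Members were the symbols starting with mt-. Log2(FPKM + 1) values were fitted with limma 3.58.1 in R 4.3.3, with trend and robust moderation and genotype as the single term, after the filter of 1 FPKM in 5 libraries. The fit was tested on simulated data. Copies were found with BLAST 2.17.0 among GENCODE M21 transcripts, of which 35655 deposited symbols matched by name. Tables and plots used Python 3.11.15, pandas 2.3.3 and matplotlib 3.10.9. Sequences are from those transcripts. Library sets follow Rnu12 at 100 FPKM. Named were all messenger and ribosomal RNAs, transfer RNAs at 0, and in other lists called genes or up to 2 with the smallest p. Copies and ratios were chosen after values were seen. Marker lists of cell types are given as sums, counts and medians. Members and lists were chosen with earlier results of these data known. Alternatives were other pseudocounts, filters, scalings, models and sets of libraries.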

Additional observations from a re-analysis of the deposited data

Results flagged for a closer look

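Of 54 groups of 5 libraries examined over 27 results, 11 had a highest or lowest library far from the 4 others. Chance gives about 1 in 20 for a single group. The 27 results share libraries and genes, and copies and ratios were chosen after values were seen. The count of 11 therefore cannot be judged against that rate. Control 5 accounted for 8. It stood above the other controls for mt-Nd1 (1628 FPKM against 409 to 592), mt-Co1 (3228 against 1406 to 1585), mt-Co2 (3353 against 821 to 1015), mt-Atp6 (2652 against 1011 to 1311) and the sum of the messenger RNAs (26710 against 11175 to 13490). It was also highest for the ratio of mt-Cytb to mt-Nd5 (4.96 against 1.35 to 1.49) and for mt-Nd4l as a percentage of mt-Nd4l and Gm10222 together (94.2% against 26.5 to 37.3%). For Gm10222 it was lowest (22.7 FPKM against 321 to 508). Control 5 is the single control of the second library set.

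Mutant 4 accounted for the other 3, the chromosome 2 copies Gm13339 (70.7 FPKM against 2.23 to 5.73 in the other mutants), Gm13340 (305 against 4.39 to 11.5) and Gm13341 (337 against 0.217 to 1.56). Mutant 5, of the same library set, did not share this. The cause of either pattern was not tested.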

How the results depend on the processing

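Over 21 alternatives the 15 members gave 315 log2 differences, of which 312 kept their direction and side of the threshold, 3 changed sign and 0 passed. The sign changes were mt-Rnr1 at -0.031 under median-ratio rescaling and -0.10 under quantile normalization, and mt-Nd4l at 0.37 with its nuclear copies added, a choice made after seeing the data. The smallest adjusted p of any member ran from 0.137 (without control 5) to 0.886. The median of the messenger RNAs stayed between 0.34 and 0.69, and without 1 library between 0.37 and 0.69. Median-ratio rescaling and quantile normalization brought the median of all genes from 0.11 to 0.00 and -0.01, and that of the messenger RNAs to 0.34 and 0.44. The number of genes called over all genes was 21 in the fit as reported, 2 with no filter, 11 without trend or robust moderation, 35 with quantile normalization, 74 with the library set as a term and 101 in the first set alone. Leaving out 1 library gave 2 to 79 genes. The 79 were called without control 5, where genotype and library set are partly confounded. Without control 1, control 2, mutant 2 or mutant 3 the number was 2. It was 4, 11, 9, 26 and 10 when control 3, control 4, mutant 1, mutant 4 and mutant 5 were dropped in turn. The cause of these shifts was not tested. With the replicate number as a block (replicate block) 14 genes and 0 members were called. Same-numbered libraries correlated at -0.11 to 0.52 in their deviations from the group means, so the numbers were not taken to pair them. Transfer RNAs could not be fitted, being at 0. Precision is limited by 5 libraries per group and by sequence shared with nuclear copies.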
